A study of Mus musculus with 6 samples.

Results

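The Adam, Adamts and Adamtsl genes were taken from the deposited expression table by symbol, as every gene named Adam, Adamts or Adamtsl followed by a number and at most 1 further letter. They numbered 56 of the 22162 genes listed, with 32 Adam, 19 Adamts and 5 Adamtsl genes. Of the 56, 29 were expressed in these fibroblasts, which here means a value of 16 normalized counts or more in at least 3 of the 6 libraries, and these comprised 13 Adam, 12 Adamts and 4 Adamtsl genes. Of the remaining 27 genes, 10 were listed at 0 in every library and 17 had values above 0 that reached no more than 12.5 normalized counts. Nearest to the threshold, the value that had to reach 16 (the third highest of the 6) was 18.1 for Adam1a on the inside and 8.78 for Adamts17 on the outside.

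ADAM proteins are metalloproteinases anchored in the cell membrane, where the active members clip the extracellular part of other membrane proteins and so release growth factors, cytokines and adhesion molecules. ADAMTS proteins are secreted relatives with thrombospondin repeats that bind and cut the extracellular matrix, including proteoglycans such as versican, procollagens and microfibril components. ADAMTS-like proteins keep the matrix-binding repeats but lack the protease domain. In skin, fibroblasts are a main source of the secreted members, and loss of procollagen processing by ADAMTS2 is known to cause fragile skin.

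Poly(A) RNA was sequenced from mouse skin fibroblasts (MSFs) of the FVB/N strain, isolated from the dorsal skin of a female FASST mouse and cultured in 3% oxygen. FASST mice carry a tamoxifen-inducible Cre recombinase (Cre-ERT2) driven by a regulatory sequence of the pro-alpha 2(I) collagen gene, and a ROSA26 cassette that expresses p27Kip1 once Cre has removed a stop sequence. Both groups carried these alleles. The 3 TAM libraries came from cells given 10 µM tamoxifen (TAM) for 48 h and labelled senescent, and the 3 EtOH libraries came from cells given the ethanol vehicle and labelled non-senescent, so tamoxifen itself and activation of the cassette cannot be told apart. How long after treatment the RNA was taken is not stated in the paper's methods. The methods describe 1 line from 1 mouse and do not name separate animals for the replicates, so the p-values measure the spread between these samples, which may be technical.

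The deposited values summed to between 14952367 and 17314953 normalized counts per library. Cdkn1b, the native gene for p27Kip1, was at 1427, 3074 and 1853 normalized counts in EtOH replicates 1, 2 and 3. It was at 1699, 1520 and 1630.0 in TAM replicates 1, 2 and 3, so its level did not separate the groups. These counts cannot tell native transcripts from those of the ROSA26 cassette. In MSFs given TAM, the paper reports GFP from the cassette, growth arrest and more cells with senescence-associated β-galactosidase staining. Summed over 10 fibroblast markers, values lay between 1531767 and 1680762 in the EtOH libraries and between 684994 and 1127539 in the TAM libraries, while 9 leukocyte markers summed to 272 to 557 and 397 to 596, respectively. By gene, 8 fibroblast markers had a log2 difference below 0 and 2 above 0. Of the 5 leukocyte markers expressed, 2 lay below 0 and 3 above, so neither sum stands for every marker. The leukocyte marker Emr1 and the keratinocyte marker Krt1 were at 0 in all libraries. The 7 keratinocyte markers summed to 68.7 to 87.0 (EtOH) and 56.9 to 80.7 (TAM). The 7 endothelial markers, of which Kdr alone was expressed, summed to 92.5 to 241 (EtOH) and 24.6 to 45.2 (TAM). Across 11879 expressed genes, 29 genes differed between the groups at an adjusted p under 0.05 (limma, Benjamini-Hochberg). In bulk RNA, fewer cells of a type and less RNA per cell cannot be told apart, and the part of the lower fibroblast marker sum in the results was not tested.

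The comparison of TAM with EtOH libraries asked which of these proteases and protease-like proteins change in MSFs treated to become senescent. None of the 29 expressed members passed an adjusted p of 0.05 in limma, against 0.244% of all genes tested. At an unadjusted p under 0.05, 1 member (Adamts6) was higher in the TAM libraries and 3 members (Adamtsl2, Adamtsl1 and Adam22) were lower, which is 3.45% and 10.3% of the members against 6.67% and 6.7% of all genes. The groups did not overlap, with all 3 TAM values higher, for 2 members (Adam9 and Adamts6, 6.9% against 9.19% of all genes) and, with all 3 lower, for the same 3 members as above (10.3% against 11.4%). The shares lie near the background of all genes, and the share of lower calls at an unadjusted p rests on 3 genes. The log2 difference was above 0 for 15 members and below 0 for 14, with a median of 0.01 beside -0.03 over all genes. It was within 0.5 of 0 for 22 members (75.9%) and for 74.2% of all genes.

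**Figure D1:**
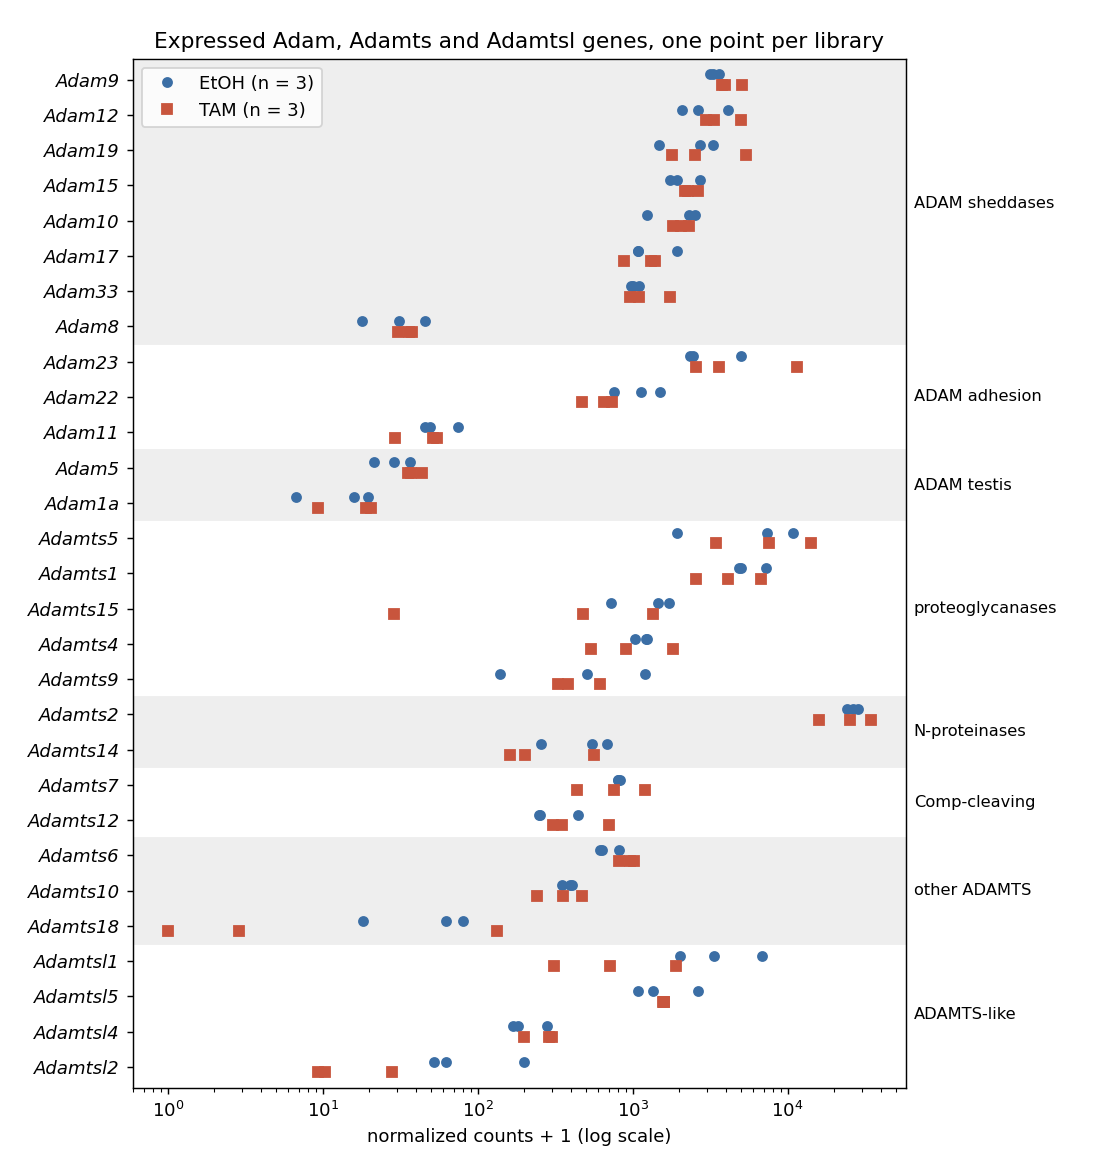
Normalized counts plus 1 (log axis) of the 29 expressed members, grouped by role and ordered by EtOH mean within a role. Each blue circle is 1 of 3 EtOH libraries and each red square 1 of 3 TAM libraries. The groups overlap for 24 members. Adamtsl1, Adamtsl2 and Adam22 have all TAM points to the left of all EtOH points, and Adam9 and Adamts6 the reverse.

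The fit that keeps the replicate number as a block called 1 member lower in the TAM libraries, Adamtsl1, against 0.631% of all genes called lower by that fit. The 4 most negative log2 differences belonged to 2 ADAMTS-like genes, Adamtsl2 (-2.64) and Adamtsl1 (-2.27), and to 2 proteases with widely spread TAM values, Adamts18 (-2.63) and Adamts15 (-2.21). By family, the median log2 difference was 0.25 for Adam genes, -0.15 for Adamts genes and -1.13 for the 4 Adamtsl genes, the last of which is set by 2 genes near -2 and 2 near 0.

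Of the 5 ADAMTS-like genes, 4 were expressed. Adamtsl1 encodes punctin, a secreted matrix glycoprotein, and lies on the plus strand at chr4:85699819-86074286 (mm9) with 30 annotated exon blocks. Its normalized counts were 3351, 2031 and 6854 in EtOH replicates 1, 2 and 3 and 709.9, 307 and 1914 in TAM replicates 1, 2 and 3 (given in this order for all genes). Replicates 1 and 2 of the TAM group fell well below the lowest EtOH value, and TAM replicate 3 lay just below EtOH replicate 2, so that the groups were separated by a narrow gap. The ratio of the TAM mean to the EtOH mean was 0.24, and the log2 difference was -2.27 (SE 0.70, 95% interval -3.91 to -0.62, adjusted p = 0.247, limma). Within same-numbered libraries the log2 differences were -2.24, -2.72 and -1.84. With the replicate block its limma adjusted p was 0.0242, and Adamtsl1 fell in the TAM libraries by that fit alone among those run. Over all the alternatives its limma adjusted p ranged from 0.0242 to 0.597, and the log2 difference without any 1 library ranged from -2.94 to -1.63.

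Adamtsl2 encodes a microfibril-associated protein that binds fibrillin-1 and the latent TGF-beta complex, and is mutated in geleophysic dysplasia. It lies on the plus strand at chr2:26934899-26964501 (mm9). Its normalized counts were 51.6, 199 and 61.1 in EtOH and 9.30, 8.36 and 27.1 in TAM. All TAM values were under the lowest EtOH value, and 1 library, EtOH replicate 2, stood above the other EtOH values. The log2 difference was -2.64 (SE 0.66, limma adjusted p = 0.183), and the same-numbered pairs gave -2.35, -4.42 and -1.15. Adamtsl2 counted as expressed through its 3 EtOH values and 1 TAM value (Adamts18 likewise), so the filter kept it through the group where it was high.

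The promoter of Adamtsl2 is shown because this gene has the most negative log2 difference of the 29 members. The 250 bases before its RefSeq start (GRCm38.p6, plus strand, chr2:27079129-27079378, reference strain sequence) follow 5′ to 3′, with capitals marking matches on either strand to any of 5 motifs. These were TATAAA of core promoters, the box named CCAAT, the Sp1 motif GGGCGG, the AP-1 motif TGANTCA and the E-box motif CACGTG.
Adamtsl2: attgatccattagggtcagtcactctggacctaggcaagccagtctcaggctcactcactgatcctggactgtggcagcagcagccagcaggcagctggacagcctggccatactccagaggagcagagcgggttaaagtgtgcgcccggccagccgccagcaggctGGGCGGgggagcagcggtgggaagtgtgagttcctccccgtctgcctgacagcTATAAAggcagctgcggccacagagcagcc
The window held 1 TATAAA, beginning 30 bases before the start, and 1 GGGCGG, and the matches did not overlap each other. TATAAA was present in 12.4% of 32851 promoter windows of this length and in 5 of the 32 windows (30 genes) of the members.

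Adamtsl4 and Adamtsl5, whose products both bind fibrillin-1 microfibrils, had log2 differences nearer to 0. Adamtsl4 was at 169, 281 and 182 in EtOH and 197, 287 and 299 in TAM, with a log2 difference of 0.32. Adamtsl5 was at 2657, 1085 and 1350.0 in EtOH and 1599, 1585 and 1575 in TAM, and its log2 difference was 0.01 (95% interval -0.75 to 0.77). In both genes the groups overlapped, and for Adamtsl5 the TAM values lay within the EtOH range and nearly coincided. The table gives Adamtsl5 a span of 976 bases where the annotated gene spans 9303, so its level was not compared with that of other genes. The highest value of Adamtsl3, which was not expressed, was 9.2. Summed per kilobase of exon over the 3 Adamtsl genes that could be ranked by length, the level was 438 ± 214 normalized counts per kb (SD, n = 3) in the EtOH and 154 ± 84.1 (n = 3) in the TAM libraries, of which Adamtsl1 made up most.

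**Figure D2:**
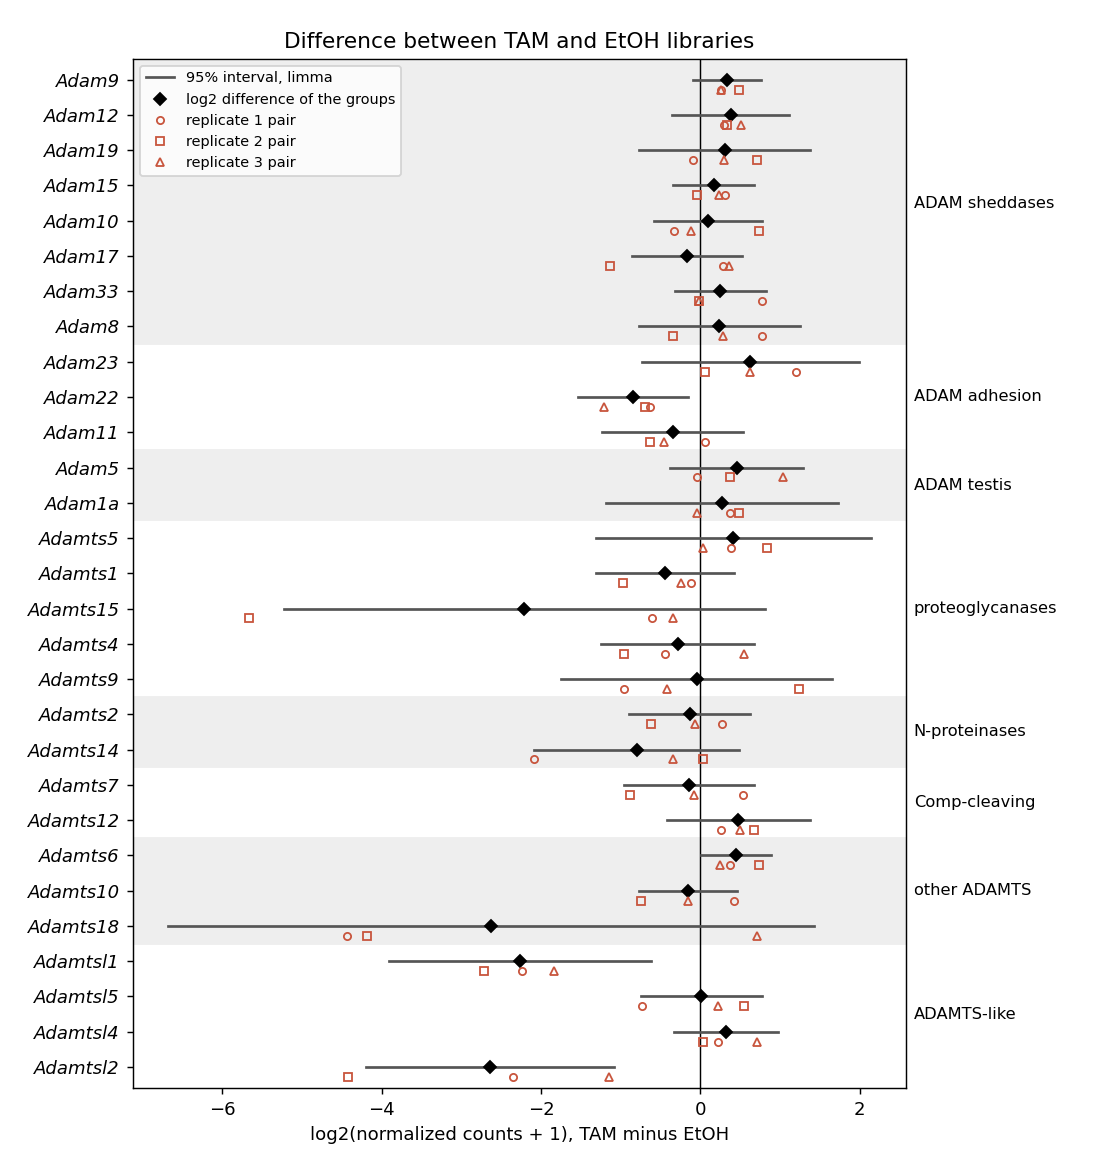
Log2(normalized counts + 1) of the TAM minus the EtOH libraries for the 29 expressed members. Diamonds are the group differences with 95% limma intervals, and open symbols are the differences of same-numbered libraries. The intervals of Adamtsl1, Adamtsl2 and Adam22 lie below 0 and that of Adamts6 barely above it, while Adamts15 and Adamts18 have the widest intervals.

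Among the membrane-bound sheddases, 8 of 9 genes were expressed and none was called. 7 of the 8 log2 differences were above 0, beside 5488 of the 11879 genes tested, and all 8 were within 0.5. For Adam8, Adam10, Adam19 and Adam33 the sign changed when a single library was left out. Adam9, also called meltrin gamma, has broad shedding activity and was at 3321, 3602 and 3150.0 in EtOH and 3963, 5046 and 3776 in TAM. Every TAM value exceeded every EtOH value, by a small margin, with a log2 difference of 0.33 (SE 0.18, limma adjusted p = 0.487). Adam9 shares its region of chromosome 8 with Adam18, Adam3, Adam5 and Adam32, genes mainly of the male germ line. These neighbours had at most 0.74 (Adam3), 42.8 (Adam5) and 8.64 (Adam32) normalized counts, Adam18 was at 0, and Adam32 begins 0.806 kb from Adam9.

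Adam10 and Adam17 are the main constitutive and stimulated sheddases of most cells. Adam10, which cuts Notch receptors and N-cadherin, was at 2295, 1232 and 2507 in EtOH and 1828, 2054 and 2306 in TAM, and Adam17, the TNF-alpha converting enzyme, was at 1078, 1920.3 and 1079 in EtOH and 1308, 878 and 1382 in TAM. In each gene EtOH replicate 2 stood apart from the other EtOH libraries, lower for Adam10 and higher for Adam17. The log2 differences were 0.096 (95% interval -0.58 to 0.78) and -0.16 (-0.86 to 0.53).

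Adam12 (meltrin alpha), which cuts IGF-binding proteins, was at 4110.3, 2656 and 2074 in EtOH and 5036, 3353 and 2959 in TAM. TAM was higher in 3 of 3 same-numbered pairs although the groups overlapped, with a log2 difference of 0.38 (limma adjusted p = 0.648, and 0.319 with the block), or 0.16 without TAM replicate 1. Adam19 (meltrin beta), a neuregulin sheddase, was at 2699, 3274 and 1467 in EtOH and 2536, 5356 and 1804 in TAM, and in both groups replicate 2 was the highest and replicate 3 the lowest. Adam15, an integrin-binding member, ranged from 1744 to 2736 normalized counts over the 6 libraries. Of its exon bases, 20.5% overlap other genes, with the largest overlap in 4731419I09Rik on the other strand. Adam33, a mesenchymal member linked to asthma, ranged from 961 to 1728, with TAM replicate 1 the highest. Adam8, mainly a leukocyte protease, ranged from 17.02 to 44.9, and Adam28, a lymphocyte member, was not expressed, with at most 6.71.

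Adam22, Adam23 and Adam11 lack an active protease site and serve in adhesion, and Adam22 and Adam23 are receptors for the secreted neuronal protein LGI1. Their differences did not share a sign. Adam22, on the minus strand at chr5:8072352-8368081 (mm9), was at 1134, 761 and 1498 in EtOH and 730.3, 469 and 650.2 in TAM. All 3 TAM values lay under the lowest EtOH value, by a gap much smaller than the spread within the EtOH group. The log2 difference was -0.84 (SE 0.29, limma adjusted p = 0.287, 0.128 with the block).
Adam23 was at 5035, 2460.2 and 2331 in EtOH and 11573, 2571 and 3581 in TAM. It was higher in TAM in 3 of 3 pairs, but replicate 1 was the highest library in each group and the groups overlapped, with a log2 difference of 0.63 (limma adjusted p = 0.687). Adam11 lay between 28.5 and 73.7, with overlapping groups. The highest Adam29 value was 0.82.

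The secreted proteoglycanases cut versican and aggrecan, and 5 of 7 were expressed. Adamts5, the major aggrecanase of cartilage in the mouse, was at 10898, 1939 and 7406 in EtOH and 14202, 3452 and 7562 in TAM. In both groups replicate 1 was the highest and replicate 2 the lowest, and the gap between replicates was several times that between the groups. TAM was higher in 3 of 3 pairs, with a log2 difference of 0.41 (SE 0.73, limma adjusted p = 0.852). Adamts1, its neighbour 55.1 kb away on chromosome 16, was at 7286, 5009 and 4870.4 in EtOH and 6722, 2549 and 4112 in TAM. It was lower in TAM in 3 of 3 pairs with overlapping groups, and its log2 difference was -0.45 (limma adjusted p = 0.648), or -0.097 without TAM replicate 2. These adjacent genes on the same strand thus had opposite signs, neither of which passed the test.

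Adamts15, a versican-cleaving member, was at 725, 1456 and 1714 in EtOH and 475, 27.6 and 1346 in TAM. The TAM group held a value of 27.6 in replicate 2 beside 1346 in replicate 3, a wider spread than in the EtOH group. TAM was lower in 3 of 3 pairs, but the log2 difference of -2.21 (SE 1.28, limma adjusted p = 0.517) rested largely on that library, and was -0.61 without TAM replicate 2. Adamts4, a second aggrecanase, was at 1221, 1041 and 1238 in EtOH and 899, 536 and 1807 in TAM, with TAM replicates on both sides of the EtOH values. Adamts9 was at 1199.7, 139 and 509 in EtOH and 619, 328 and 380.1 in TAM, so that its EtOH replicates spanned the whole TAM range. Of its exon bases, 14.4% overlap other genes, with the largest overlap in A730049H05Rik.

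Adamts20 and Adamts8 were under the threshold of expression. Adamts20, which is known for melanoblast survival in skin, was at 4.66, 12.5 and 6.23 in EtOH and 2.05, 3.34 and 1.95 in TAM. Adamts8 was at 0, 0 and 0.85 in EtOH and 0.65, 5.01 and 6.36 in TAM, and Adam32, the germ line gene next to Adam9, was at 2.26, 0 and 3.54 in EtOH and 8.64, 5.01 and 5.18 in TAM. For Adamts20 the TAM values were the lower and for Adam32 the higher, without overlap, and for Adamts8 the groups overlapped (TAM replicate 1 at 0.65, EtOH replicate 3 at 0.85). In a limma fit without the filter their unadjusted p-values were 0.0308, 0.023 and 0.0406 and none passed adjustment (adjusted p = 0.318, 0.285 and 0.356), and all rest on few counts.

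**Figure D3:**
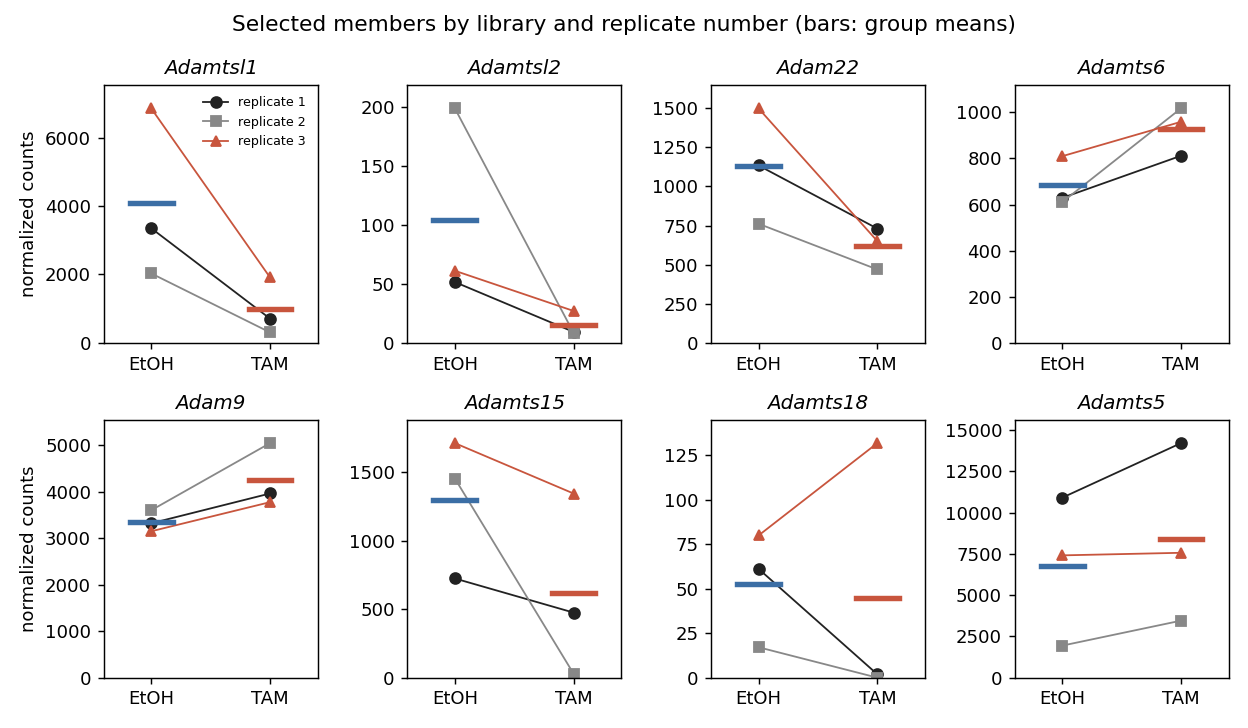
Normalized counts of 8 members in each library. Lines join same-numbered EtOH and TAM libraries, and blue and red bars are the EtOH and TAM means. For Adamtsl1, Adamtsl2 and Adam22 the 3 lines descend, for Adamts6, Adam9 and Adamts5 they ascend, the Adamts15 mean is pulled down by replicate 2, and the Adamts18 lines point both ways.

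The 3 procollagen N-proteinases, which remove the amino-terminal propeptide of fibrillar procollagens, covered nearly the whole range of expression. Adamts2, on the plus strand at chr11:50415586-50621075 (mm9), was the most abundant member per kilobase and was at 28473, 24312 and 26303 in EtOH and 34471, 15882 and 25133 in TAM. TAM replicates lay both above and below all EtOH values, with a log2 difference of -0.13 (95% interval -0.89 to 0.62). Adamts14 was at 682, 549 and 256 in EtOH and 159.7, 562 and 202 in TAM, and TAM replicates 1 and 3 lay under all EtOH values whereas TAM replicate 2 lay among them. Its log2 difference was -0.80 (SE 0.55, limma adjusted p = 0.584). Adamts3, which also processes VEGF-C, was at 0 in all 3 EtOH libraries and at most 0.66 in the TAM libraries. In EtOH libraries, Adamts2 was thus at 2824 ± 223 normalized counts per kb of exon and Adamts14 at 95.4 ± 42.0 (SD, n = 3).

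The promoters of these 3 genes are shown because genes of one activity ranged from the top of the family to near 0. They are the 250 bases before the RefSeq start (GRCm38.p6), 5′ to 3′ in the direction of the gene, with capitals for matches to the same 5 motifs.
Adamts2: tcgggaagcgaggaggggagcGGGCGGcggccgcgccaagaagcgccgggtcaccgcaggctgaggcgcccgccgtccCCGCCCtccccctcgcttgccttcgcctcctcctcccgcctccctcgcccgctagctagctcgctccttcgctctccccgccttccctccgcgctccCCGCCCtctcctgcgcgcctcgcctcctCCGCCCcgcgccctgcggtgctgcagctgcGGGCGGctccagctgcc
Adamts14: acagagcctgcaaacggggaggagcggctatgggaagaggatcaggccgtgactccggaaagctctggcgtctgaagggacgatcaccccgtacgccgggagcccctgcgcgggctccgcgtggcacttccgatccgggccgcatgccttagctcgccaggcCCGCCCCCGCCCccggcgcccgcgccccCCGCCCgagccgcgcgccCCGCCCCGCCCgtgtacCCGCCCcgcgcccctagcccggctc
Adamts3: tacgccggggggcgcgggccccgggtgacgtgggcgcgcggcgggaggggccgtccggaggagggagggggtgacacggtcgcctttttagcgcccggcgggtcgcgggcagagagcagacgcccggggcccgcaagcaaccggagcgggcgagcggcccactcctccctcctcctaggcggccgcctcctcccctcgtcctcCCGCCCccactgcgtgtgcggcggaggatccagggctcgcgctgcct
The windows lie at chr11:50601835-50602084 (plus strand), chr10:61273420-61273669 (minus strand) and chr5:89883335-89883584 (minus strand), respectively. All 3 were rich in G and C, at 78%, 76.4% and 78% of bases. GGGCGG, counted on both strands, matched 5 times for Adamts2, 6 times for Adamts14 and once for Adamts3, and no window held any of the other 4 motifs. GGGCGG was present in 32.7% of all 32851 windows and in 15 of the 32 member windows (46.9%), CCAAT in 33.8% and in 10, TGANTCA in 6.75% and in 3, and CACGTG in 6.02% and in 4. A match describes the letters of the window and not a bound site.

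Adamts7 and Adamts12 cut cartilage oligomeric matrix protein (Comp), whose own transcript was at most 5.43 normalized counts. Adamts7 was at 829, 804 and 801 in EtOH and 1204, 437 and 757 in TAM, with 3 nearly equal EtOH values between TAM values above and below them. Adamts12 was at 252, 444 and 248 in EtOH and 303, 706 and 350.0 in TAM, and replicate 2 was the highest library of each group. TAM was higher than EtOH in 3 of 3 pairs for Adamts12, with a log2 difference of 0.48 (limma adjusted p = 0.639, 0.283 with the block), or 0.10 without TAM replicate 2.

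Adamts6 and Adamts10 are close paralogs tied to fibrillin microfibrils. Adamts6, at chr13:105077953-105284843 on the plus strand (mm9), was at 629, 610.5 and 809.7 in EtOH and 812, 1017 and 959 in TAM. The lowest TAM value lay just above the highest EtOH value. The log2 difference was 0.45 (SE 0.19, limma adjusted p = 0.365, 0.296 with the block). Adamts10 was at 349.5, 406 and 392 in EtOH and 467, 242 and 353 in TAM, with the EtOH values inside the TAM range.
Adamts18, which is needed for eye and lung development, was at 61.2, 17.1 and 80.0 in EtOH and 1.89, 0 and 132 in TAM. TAM replicates 1 and 2 were at 1.89 and 0 while TAM replicate 3 was the highest of all 6 libraries, and the log2 difference of -2.63 (SE 1.72, limma adjusted p = 0.571) moved between -4.73 and -1.20 as single libraries were left out. It was at 16 counts or more in all 3 EtOH libraries but in 1 TAM library. Adamts13, the von Willebrand factor protease of liver, was above 0 in 1 library only (0.84), and Adamts16, Adamts17 and Adamts19 were not expressed, at no more than 3.95, 9.87 and 0.89.

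Of 19 Adam genes known mainly from testis or epididymis, 10 were listed at 0 in all libraries (Adam6a, Adam6b, Adam7, Adam18, Adam24, Adam25, Adam26a, Adam30, Adam34 and Adam39). Only Adam5 and Adam1a were expressed. Adam5 was at 35.3, 27.7 and 20.3 in EtOH and 34.4, 36.0 and 42.8 in TAM, with overlapping groups. Adam1a, a gene in 1 exon block, was at 14.8, 5.68 and 18.6 in EtOH and 19.5, 8.36 and 18.1 in TAM. Of its exon bases, 24.9% are also exon of other genes, with the largest overlap in Mapkapk5 on the same strand, so those reads cannot be assigned to Adam1a with certainty. The other 7 of these genes reached at most 8.64. Chromosome 8 carried 13 of the 56 members, more than any other chromosome.

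Levels were compared between genes per kilobase of annotated exon, for the 25 expressed members with fewer than 1.5 annotated exon bases for each exon base inside the listed span. The other 4 expressed members (Adam10, Adam23, Adam33 and Adamtsl5) were not ranked, so the order holds among the 25 alone. The exon length joins all annotated transcripts of a gene, whereas reads were counted on RefSeq genes, so lengths and counts may not match. Adamts2 was first in the EtOH libraries at 2824 ± 223 normalized counts per kb (SD, n = 3 for all values here) and held 26.7% to 36.1% of the summed level of the 25 genes in every library. Adamts1 at 1079 ± 256, Adam9 at 837 ± 56.9 and Adamts5 at 834 ± 558 came next and differed from one another by less than their spread. Adamtsl1 followed at 375 ± 229, close to Adam12 at 356 ± 127, Adam15 at 346 ± 85.9 and Adam19 at 331 ± 123, again within their spread. At the lower end were Adam8 at 6.62 ± 3.01 and Adam1a at 4.22 ± 2.16. In the TAM libraries, Adamts2 stood at 2695 ± 996, Adam9 at 1063 ± 171, Adamts5 at 1039 ± 670 and Adamtsl1 at 89.9 ± 76.9. The sum over the 25 genes was 8356 ± 926 in the EtOH and 8190.2 ± 1930 in the TAM libraries.

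Partners of these proteases were examined as 4 lists. Of 11 inhibitor genes, 6 were expressed and none passed an adjusted p of 0.05, and the block called 1 higher and 1 lower, against 1.06% and 0.631% of all genes. Without the block these were also the 2 genes with an unadjusted p under 0.05 (Timp1 and Spock3, 16.7% of the 6 each way against 6.67% and 6.7% of all genes), and the median log2 difference of the 6 was -0.52, beside -0.03 over all genes. Timp1, a secreted metalloproteinase inhibitor that also blocks ADAM10, was at 1328, 3801 and 874 in EtOH and 3571, 12745 and 4506 in TAM, higher in TAM in 3 of 3 pairs although EtOH replicate 2 exceeded TAM replicate 1. Its log2 difference was 1.85 (limma adjusted p = 0.291, 0.0384 with the block). Spock3 is a testican proteoglycan, and whether it acts on ADAM or ADAMTS proteins was not tested. It was at 90.9, 98.3 and 236 in EtOH and 2.62, 6.69 and 13.3 in TAM, with a gap between the groups. Its log2 difference was -4.14 (limma adjusted p = 0.0628, 0.0213 with the block). It reached 16 counts in the 3 EtOH libraries alone, so the filter kept it through the group where it was high. Timp3, the inhibitor of ADAM17 and of the aggrecanases, was at 18738, 9589 and 30229 in EtOH and 2133, 18833 and 9062 in TAM, with overlapping groups and a log2 difference of -1.30 (limma adjusted p = 0.546) that was -0.43 without TAM replicate 1 and -2.0 without TAM replicate 2. Timp2 was between 22001 and 36582 in all libraries, Timp4 was not expressed (at most 4.87), and Reck, a membrane-anchored inhibitor, had a log2 difference of -0.57 (limma adjusted p = 0.498), or -0.23 without TAM replicate 2.

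Of 27 genes for trafficking, activation or uptake of these proteases, 24 were expressed. None was called, the block called 1 higher (1.06% of all genes), and at an unadjusted p under 0.05, 6 were higher and 1 was lower (25% and 4.17%, against 6.67% and 6.7% of all genes), with a median log2 difference of 0.24. Pcsk5, a proprotein convertase, was at 104, 43.8 and 19.3 in EtOH and 1753, 346 and 107 in TAM, the groups just clear of each other, and had a log2 difference of 3.14 (limma adjusted p = 0.268, 0.0345 with the block). It was 2.08 without TAM replicate 1 and 4.09 without TAM replicate 3. Itga9, an integrin chain that binds ADAM disintegrin domains, was at 58.4, 47.6 and 22.9 in EtOH and 141, 208 and 131 in TAM, also without overlap, with a log2 difference of 1.94 (limma adjusted p = 0.131). For the ADAM17 cofactor Frmd8 and the ADAM10 partner Tspan14, which also did not overlap, the log2 differences were 0.67 and -0.60 (limma adjusted p = 0.254 and 0.22). Rhbdf1, an iRhom that carries ADAM17 to the surface, lay between 973 and 1252, its relative Rhbdf2 between 19.2 and 172, the prodomain convertase Furin between 1657 and 2575, and the endocytic receptor Lrp1 between 62992 and 87647, each with overlapping groups.

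Of 60 genes for known ADAM substrates, 43 were expressed, and 1 was called, lower in the TAM libraries. Ngfr, the p75 neurotrophin receptor shed by ADAM17, was at 2901, 1078 and 3545 in EtOH and 27.2, 9.20 and 52.9 in TAM. It fell by 6.48 on the log2 scale (SE 0.68, limma adjusted p = 0.0365), and the TAM values lay far below the EtOH values. With 1 library left out the log2 difference stayed between -7.04 and -5.84, but it passed an adjusted p of 0.05 only without TAM replicate 3 and in none of the other 5 such fits. At an unadjusted p under 0.05, 7 of the 43 were higher (16.3%) and only Ngfr was lower (2.33%), against 6.67% and 6.7% of all genes, and the median log2 difference was 0.37. Cdh2, or N-cadherin, was at 504, 528 and 476 in EtOH and 897, 1276 and 929 in TAM (log2 difference 1.02, limma adjusted p = 0.103), and the leukocyte adhesion molecule Icam1 was at 5.17, 19.0 and 4.27 in EtOH and 56.1, 47.7 and 56.5 in TAM (log2 difference 2.65, limma adjusted p = 0.147). In both genes the groups were clear of each other, and Icam1 reached 16 counts in all TAM libraries but in 1 EtOH library.

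Of 43 genes for ADAMTS substrates and matrix partners, 32 were expressed, none was called, and the block called 3 higher, against 1.06% of all genes. At an unadjusted p under 0.05, 5 were higher (15.6%) and 6 were lower (18.8%), against 6.67% and 6.7% of all genes, with a median log2 difference of 0.27. Vcan (versican) was at 5600.1, 7258 and 5895 in EtOH and 10434, 13593 and 11783 in TAM, without overlap, with a log2 difference of 0.93 (limma adjusted p = 0.146). Tenascin C (Tnc), Ltbp2 and Fbn2 were higher in TAM in 3 of 3 pairs, with log2 differences of 2.85, 2.43 and 2.3 and limma adjusted p-values of 0.0286, 0.0458 and 0.0448 with the block, against 0.29, 0.262 and 0.45 without it. Fbn2 reached 16 counts in all TAM libraries but in 1 EtOH library, and its log2 difference was 1.2 without TAM replicate 1. Dcn (decorin) was at 79944, 75763 and 106514 in EtOH and 27277, 6712 and 25738 in TAM, and Eln (elastin) at 20.9, 86.0 and 42.6 in EtOH and 2.63, 5.01 and 5.37 in TAM, both without overlap, with log2 differences of -2.37 and -3.08 (limma adjusted p = 0.163 and 0.131). Eln reached 16 counts in the 3 EtOH libraries alone, so the filter kept it through the group where it was high. Dcn is itself one of the 10 fibroblast markers whose sum was lower in the TAM libraries. The aggrecan gene Acan was at 0 in the EtOH libraries and at most 0.71 in the TAM libraries.

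**Figure D4:**
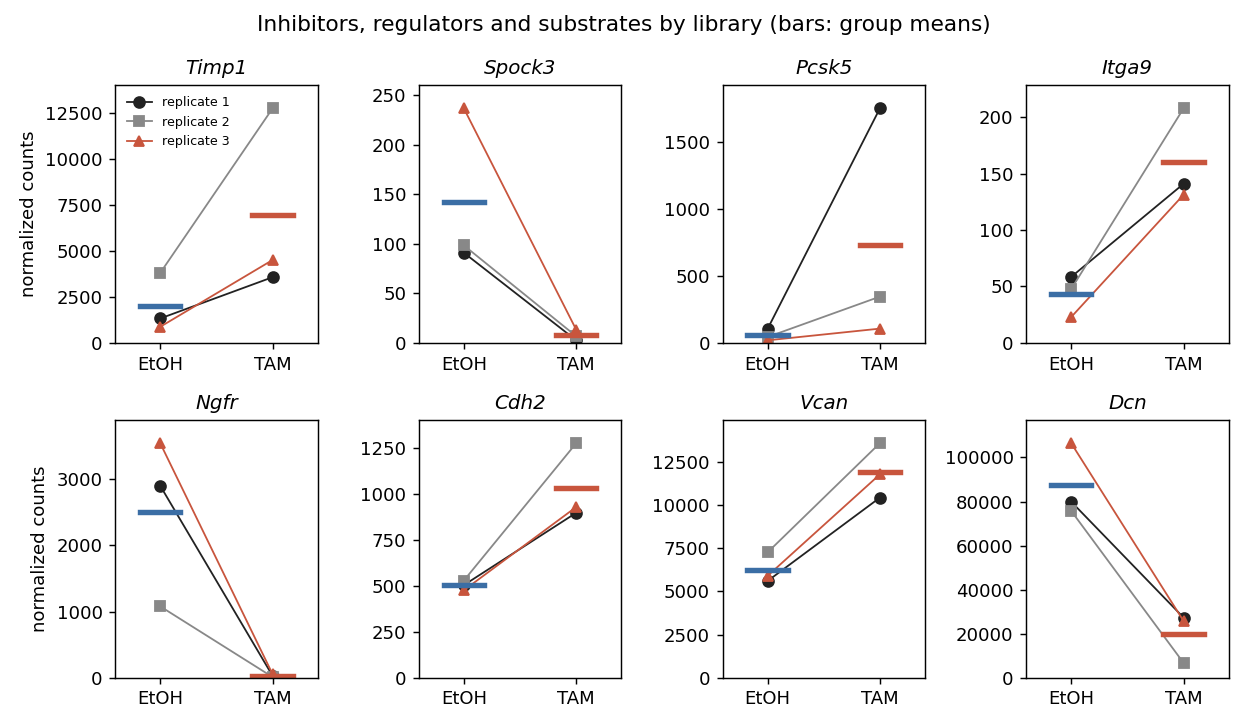
Normalized counts of 8 inhibitor, regulator and substrate genes in each library. Lines join same-numbered libraries, and blue and red bars are the EtOH and TAM means. Timp1, Pcsk5, Itga9, Cdh2 and Vcan ascend in all 3 pairs, and Spock3, Ngfr and Dcn descend. Timp1 is the only one of the 8 in which the groups overlap.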

How the data were processed

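Poly(A) RNA-seq of 3 TAM and 3 EtOH libraries was analysed. Per the labels and the study's methods, reads were aligned to mm9 with TopHat, counted on RefSeq genes with htseq-count and tested with edgeR after TMM normalization (versions and strand setting not given in the sources used here). The authors deposited 1 table of normalized counts (a signal, not whole numbers) and do not state its scaling. Read depth was not recoverable for every library, and so no count test was run. In EtOH and TAM replicate 2, 98.8% and 100% of low values fell within 0.1 of a whole step of the smallest unit. In the other libraries 43.2% to 74.3% did, and the cause of this difference was not tested.

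Values were tested as log2(value + 1) with limma 3.58.1 (R 4.3.3, intensity trend, group means) for genes at 16 or more in at least 3 libraries (11879 genes), with Benjamini-Hochberg adjustment over all of them at 0.05. A fold change on this scale understates the change of low genes. The fit was tested on simulated data with large changes, the same spread for every gene and no shared replicate deviation. Real genes differed in spread, so that test does not show how the fit performs on widely spread genes. A permutation test of 3 against 3 libraries cannot give a p under 0.1, so none was used. The labels give the replicate numbers. With each group centred, same-numbered libraries deviated together (r = 0.24, 0.287 and 0.422). Other pairs gave -0.31 to 0.0377, but centring ties these to the former, so they are no separate contrast. A fit with the replicate number as a block is given where it changes a call. It is also given for Adam12, Adam22, Adamts6 and Adamts12, where it does not. Same-numbered pairs all share a direction where the groups do not overlap. Elsewhere, the share of all genes with 3 of 3 pairs in 1 direction was not counted. Exon lengths and positions came from the mm9 annotation, where all 56 symbols matched, and promoters from RefSeq (GRCm38.p6), where 30 members matched. Genes are named if expressed members, if called with or without the block, if main inhibitors or regulators, or if among the 3 smallest unadjusted p-values under 0.05 of a list. The members and lists were chosen with earlier results of these data known. Alternatives covered scaling, pseudocount, filter, trend, block and left-out libraries, and library weights were added after seeing the data. The fit kept 1698 listed genes that have an identifier and no symbol, where they passed the filter.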

Additional observations from a re-analysis of the deposited data

How the results depend on the processing

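Over all the settings run, the log2 difference changed sign in at least 1 setting for 14 of 29 members. It kept its direction for 15, among them Adamtsl1, Adamtsl2, Adam22, Adam9 and Adamts6. In these named genes the groups did not overlap, so leaving out 1 library could not reverse the sign. Block, trend and filter settings left the log2 difference of a gene unchanged, so they could not reverse it either. Without 1 library it ranged from -0.22 to 0.29 for Adam10, -0.30 to 0.11 for Adam17, -0.14 to 0.65 for Adam19, -0.19 to 0.63 for Adam1a, -0.016 to 1.07 for Adam23, -0.0035 to 0.42 for Adam33, -0.12 to 0.56 for Adam8, -0.38 to 0.088 for Adamts10, -0.40 to 0.16 for Adamts2, -0.74 to 0.13 for Adamts4, -0.32 to 0.94 for Adamts5, -0.50 to 0.24 for Adamts7, -0.87 to 0.67 for Adamts9 and -0.26 to 0.39 for Adamtsl5. Among those that kept their direction it ranged from -0.50 to -0.063 for Adam11, 0.16 to 0.65 for Adam12, 0.035 to 0.36 for Adam15, -0.80 to -0.097 for Adamts1, 0.10 to 0.75 for Adamts12, -1.34 to -0.44 for Adamts14, -3.38 to -0.61 for Adamts15 and 0.19 to 0.55 for Adamtsl4. These fits called 0 members, found 2 (without EtOH replicate 1) to 6 (without TAM replicate 3) members at an unadjusted p under 0.05, against 4 with all libraries, and gave member medians from -0.19 (without EtOH replicate 2) to 0.10. With library weights, chosen after seeing the data, the log2 difference reversed for Adam10 (-0.054), Adam17 (0.24), Adam19 (-0.0089), Adamts4 (0.30) and Adamtsl5 (-0.18), and 1 member, Adam22, was called (limma adjusted p = 0.0335). Library weights also called 12 partner genes that did not pass without them (Cdh2, Dcn, Eln, Frmd8, Icam1, Itga9, Ltbp2, Spock3, Timp1, Tnc, Tspan14 and Vcan), with limma adjusted p-values from 0.00897 to 0.0447. Scaling by library sum moved the median of all genes from -0.03 to 0.08 and turned Adamts9 to 0.064, which relative to that shift is slightly below 0. Without the filter, 46 members entered the fit, 7 had an unadjusted p under 0.05, and the member median was 0.24. The replicate block called 1 member, Adamtsl1, and of the partner genes named it added Timp1, Spock3, Pcsk5, Tnc, Ltbp2 and Fbn2. It also called the endothelial marker Kdr (limma adjusted p = 0.0485, against 0.0608 without the block). Kdr was low in the TAM libraries, where the 7 endothelial markers together summed to at most 45.2 normalized counts. The block changed no other call among the members and partner genes named. The cause of these differences was not tested, beyond the change in genes or samples entered.

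Across all genes the calls higher and lower in the TAM libraries numbered 20 and 9, and 126 and 75 with the block, 383 and 353 with library weights, 12 and 5 without the filter, 3 and 2 when all libraries had to reach 16, and between 0 and 6 higher and 0 and 9 lower without any 1 library. With 3 libraries a group and read depth not recoverable for every library, counting error could not be separated from the spread between libraries. Members at fewer than 16 normalized counts could not be compared with precision. Leaving out 1 library leaves 2 in its group, whose spread limma pools with the other group.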
